A study of Homo sapiens with 11 samples.

Results

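The ERK output genes described here are DUSP1, DUSP4, DUSP5, DUSP6, SPRY2, SPRY4, ETV4, ETV5, EGR1 and FOSL1, 10 of the 31325 gene symbols measured. They were chosen by symbol, for their known role as feedback regulators and transcription factors that ERK signalling switches on, and all 10 had a row in the deposited table. The choice was made with earlier results of these data known. The mRNAs were measured on 11 Illumina BeadChip arrays in 4 groups. MDA-MB-231 is a basal-like breast cancer line that carries a mutation in BRAF, a kinase of the pathway itself. SKOV3 is an ovarian cancer line, named SKOV3.ip1 in the study's text. Each line was transfected with a miR-365a-3p mimic (3 arrays per line) or with a control miRNA (3 arrays for MDA-MB-231, 2 for SKOV3). The sample labels give 48 h after transfection and the design text of the series gives 24 h, so the time is not settled. Each tumour type is represented by 1 cell line, and the sources used here do not say whether arrays of a group came from separate transfections, so p-values measure only the spread between these arrays.

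The kinase ERK is the last step of a chain that runs from growth factor receptors through RAS, RAF and MEK. Active ERK enters the nucleus and turns on many genes, among them the 3 kinds described here. Dual-specificity phosphatases (DUSP) remove the phosphates that activate ERK and its relatives. Sprouty proteins (SPRY) act upstream, between the receptor and RAF. The transcription factors EGR1, FOSL1, ETV4 and ETV5 carry the signal on to further genes. Because the phosphatases and Sproutys restrain the pathway that induces them, their mRNAs are widely read as a gauge of ERK output, and they are high in many tumour cells with RAS or RAF mutations.

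The mature mimic sequence is shown because the whole experiment rests on it, with the seed, bases 2 to 8, in capitals. It was read from the RefSeq miRNA table (build GRCh38.p14), where it lies at chr16:14309340-14309361 on the plus strand. The product of a second locus at chr17:31575478-31575499, hsa-miR-365b-3p, has the same bases, as has the miR-365 entry in the study's mimic library.
hsa-miR-365a-3p: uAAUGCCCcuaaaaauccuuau

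Promoter sequences in RefSeq (GRCh38.p14, windows of 300 bases around the start of each gene, most of them upstream) were found for 5 of the 10 genes, DUSP1, DUSP6, SPRY2, SPRY4 and EGR1. Those of EGR1, DUSP1 and DUSP6 are shown because EGR1 and DUSP1 were the genes called in both cell lines and DUSP6 differed most between the lines, and because each holds a motif through which ERK-responsive factors are known to work. The EGR1 window (chr5:138465229-138465528, plus strand) holds 2 CArG boxes, the element read by serum response factor, at −105 and −83 bases from the start. The DUSP1 window (chr5:172771146-172771445, minus strand) holds the cAMP response element TGACGTCA at −125. The DUSP6 window (chr12:89352452-89352751, minus strand) holds the octamer of the repressor CIC, TCCATTGA on this strand, at −24 and again at 1. Capitals mark these matches.
EGR1: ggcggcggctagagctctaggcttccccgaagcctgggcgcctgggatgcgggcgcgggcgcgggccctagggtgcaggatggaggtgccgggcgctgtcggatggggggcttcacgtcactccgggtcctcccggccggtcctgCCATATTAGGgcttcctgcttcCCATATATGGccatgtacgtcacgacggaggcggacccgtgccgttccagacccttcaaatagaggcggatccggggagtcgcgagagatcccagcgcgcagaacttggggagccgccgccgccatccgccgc
DUSP1: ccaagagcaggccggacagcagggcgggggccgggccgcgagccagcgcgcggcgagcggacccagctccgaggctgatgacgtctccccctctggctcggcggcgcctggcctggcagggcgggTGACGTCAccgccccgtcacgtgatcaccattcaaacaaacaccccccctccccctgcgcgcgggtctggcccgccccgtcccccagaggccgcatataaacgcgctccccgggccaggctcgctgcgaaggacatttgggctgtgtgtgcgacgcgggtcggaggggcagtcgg
DUSP6: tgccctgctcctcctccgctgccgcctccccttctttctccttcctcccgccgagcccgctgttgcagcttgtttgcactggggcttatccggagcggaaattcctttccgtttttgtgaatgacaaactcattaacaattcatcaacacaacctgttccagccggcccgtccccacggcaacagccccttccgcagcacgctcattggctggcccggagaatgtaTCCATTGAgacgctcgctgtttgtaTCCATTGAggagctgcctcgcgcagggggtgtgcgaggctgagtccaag

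Of 35116 RefSeq promoter windows of this length, 1.29% held a CArG box on either strand, 1.85% TGACGTCA, and 3.77% one of the CIC octamers TGAATGAA, TGAATGGA, TCAATGAA or TCAATGGA. The CArG box, TGACGTCA and the CIC octamers were each in 1 of the 5 members' windows. The AP-1 motif TGANTCA (7.71% of windows) and the ETS motif CCGGAAGT (4.14%) were in 0 of the 5 members' windows. The windows of SPRY2 and SPRY4 held 0 matches to any of these motifs. A match describes letters in this window, not a bound site, and the absence of a match says only that these letters are not there.

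The miR-365a-3p mimic was accompanied by lower levels of most of these mRNAs in MDA-MB-231 cells, and fewer calls were made in SKOV3 cells. In MDA-MB-231, 8 of the 10 genes fell (DUSP5, DUSP6, SPRY2, SPRY4, ETV4, ETV5, EGR1 and FOSL1), DUSP1 rose and DUSP4 made no call. Of all rows, 11.7% were called lower there and 14.4% higher. In SKOV3, EGR1 fell and DUSP1 rose, where 7.11% of all rows were called lower and 7.25% higher, and the other 8 made no call. Treated arrays lay below the controls there for 6 of the 10 genes, against 18.2% of all rows, several of these genes being close to the lower limit of signal in this line. The EGR1 call in MDA-MB-231 and the DUSP1 call in SKOV3 were lost under several other settings, given below. Control MDA-MB-231 cells had higher levels than control SKOV3 cells of every one of the genes but EGR1, where 7.76% of all rows were called higher and 8.34% lower. All values below are log2 values after quantile normalization of the 11 arrays, differences are log2 differences with their SE, and a call is an adjusted p under 0.05 in the limma fit over all 31325 rows.

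Some facts of the arrays bear on every value. The floor level was set at the 60th percentile of an array, which was 7.43 on the log2 scale after quantile normalization. On the arrays as deposited that percentile ran from 7.38 to 7.51. As no measure of detection was used, the floor level is a chosen cutoff, and values at or below it are read as without clear signal. A gene near or below it in a group has little or no room for a measured fall, and a difference between groups near it is read with that limit. The deposited arrays differed between treatments: their upper quartile averaged 7.91 in MDA-MB-231 control, 7.62 in MDA-MB-231 miR-365a-3p, 8.01 in SKOV3 control and 7.74 in SKOV3 miR-365a-3p. The balance between 122 genes of small-protein families (such as ribosomal proteins) and 10 of large-protein families (such as myosins and laminins), the difference of their median log2 values, was 1.67 to 2.21 on control arrays of MDA-MB-231 and 4.23 to 4.37 on its miR-365a-3p arrays. In SKOV3 it was 1.67 to 1.84 and 3.18 to 4.21. Both shifts moved with the treatment in both lines, and their part in the results was not tested. In cultures measured as a whole, fewer cells with a transcript and less of it per cell cannot be told apart.

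Marker genes were checked against the line names. ESR1, PGR, GATA3 and CDH1 were at the floor in MDA-MB-231 control (7.27 to 7.40), where VIM was 13.79. EPCAM, also listed as low in that line, was above the floor level at 7.63. Between control arrays, 2 of the 5 genes listed as present in MDA-MB-231 were called higher there than in SKOV3 and 3 made no call. Of all rows, 7.76% were called higher in that comparison and 8.34% lower. Of the 5 genes listed as present in MDA-MB-231, 3 were called lower with miR-365a-3p in that line, where 11.7% of all rows were. The median difference of the 5 was −1.70. Among the 3 were AXL (−3.80, adjusted p = 0.000252) and CD44 (−2.52, 7.81e-05). The AXL difference was the most negative of all rows in MDA-MB-231. AXL and CD44 were called lower in SKOV3 too (−2.44 and −1.43), and 1 of the 5 was called higher there. In SKOV3 control, ERBB2 was 10.86 against 7.61 in MDA-MB-231 control, EPCAM was 10.36 against 7.63, and PAX8 was 8.18 against 7.40. Of the 5 genes listed as present in SKOV3, 4 were called higher in SKOV3 control than in MDA-MB-231 control, and KRT18 made no call (7.90 against 8.01). With miR-365a-3p, ERBB2 and PAX8 were called lower in SKOV3 (−1.57 and −0.70), and KRT8 was called higher in MDA-MB-231 (0.86). Of 7 markers of other cell types, PTPRC (white blood cells), CD3E (T cells) and HBB (red blood cells) were at the floor in all 4 groups. The stromal genes COL1A1 and ACTA2 were at 8.51 and 8.31 in SKOV3 control and lower in the other groups, 7.36 to 7.76, and PECAM1 and ALB were at 7.39 to 7.48 throughout. The part of these marker differences in the results was not tested.

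**Figure D1:**
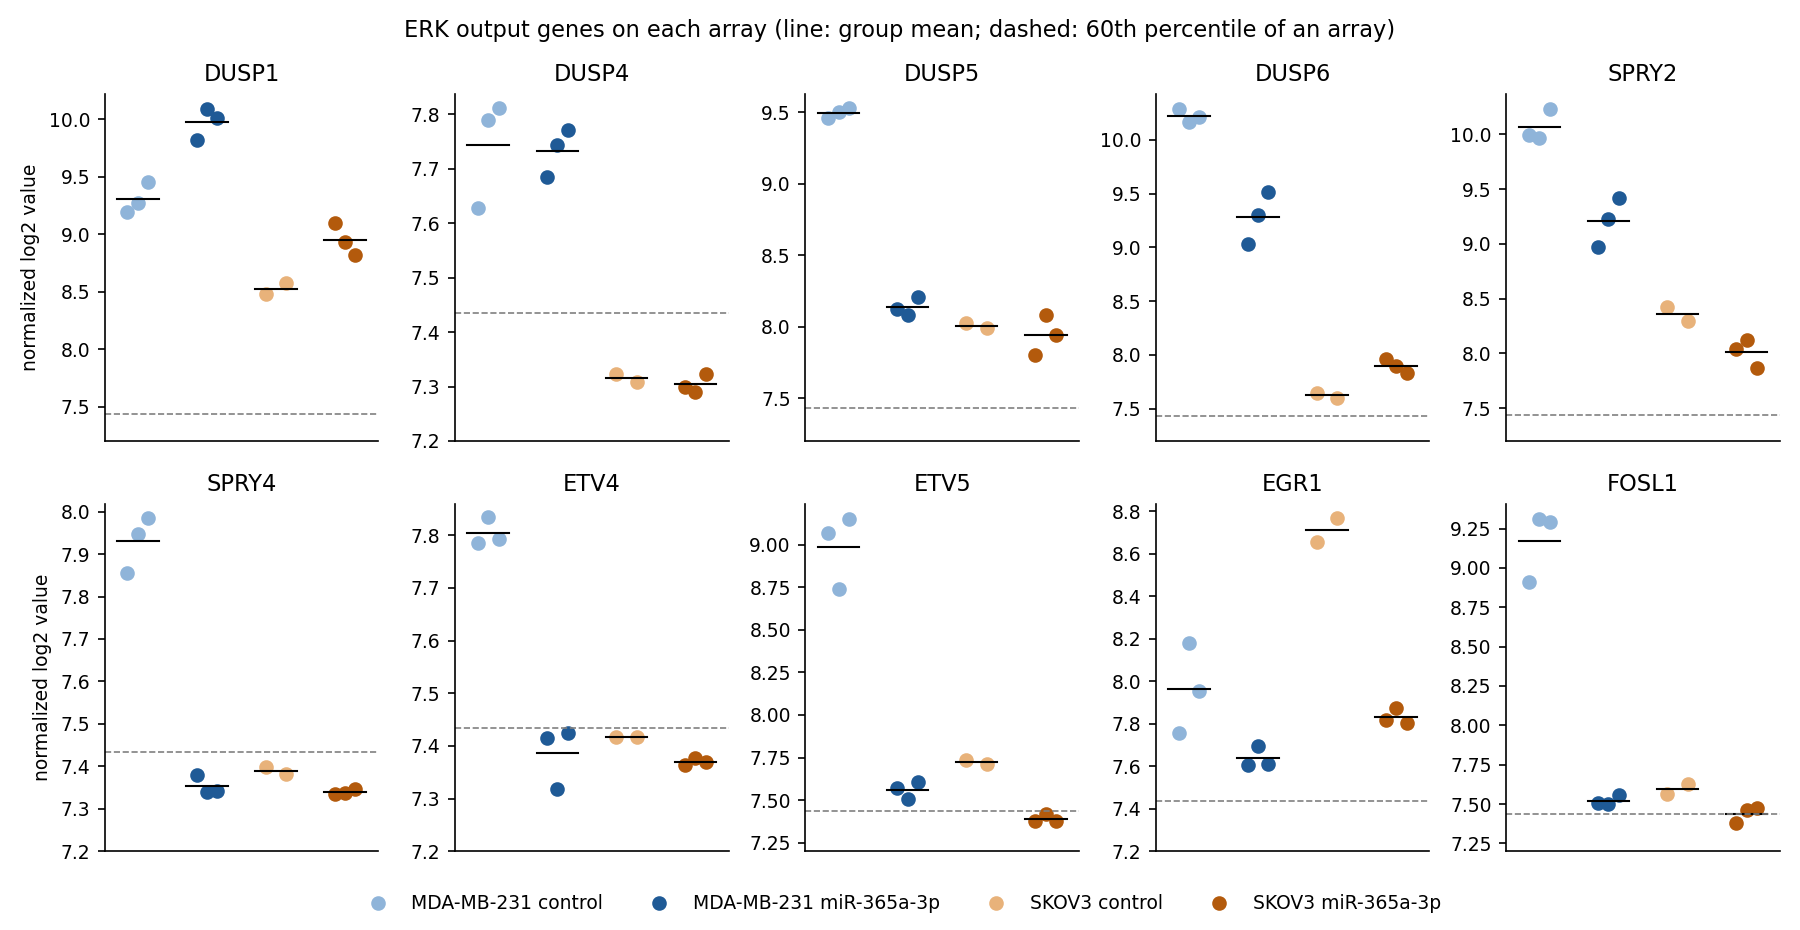
Normalized log2 value of each of the 10 ERK output genes on each of the 11 arrays, in 4 groups by cell line and treatment. Points are arrays, the short line is the group mean and the dashed line is the floor level of 7.43. In 8 panels the MDA-MB-231 control arrays lie above the miR-365a-3p arrays of that line, DUSP1 shows the opposite order, and DUSP4 overlaps.

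DUSP6 and DUSP5 are the phosphatases most specific for ERK itself, DUSP6 in the cytoplasm and DUSP5 in the nucleus. In MDA-MB-231 controls DUSP6 read 10.29, 10.16 and 10.22 (10.22 ± 0.06, SD, n = 3). With miR-365a-3p its arrays read 9.03, 9.30 and 9.52, all below the controls. In SKOV3 the order was the opposite: the controls read 7.65 and 7.60 and the miR-365a-3p arrays 7.97, 7.90 and 7.83. DUSP6 fell by 0.94 in MDA-MB-231 (SE 0.104, adjusted p = 0.000297). In SKOV3 its difference was 0.27 (95% interval 0.0079 to 0.54, adjusted p = 0.186), no call, although the 2 groups of arrays did not overlap. That difference was called with SKOV3 fitted alone (adjusted p = 0.0433) and without MDA-MB-231 miR-365a-3p replicate 1 (adjusted p = 0.0374).

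For DUSP5 the MDA-MB-231 controls read 9.46, 9.51 and 9.53 and the miR-365a-3p arrays 8.12, 8.09 and 8.21, so the treated arrays came close to the level of SKOV3 cells. SKOV3 controls read 8.03 and 7.99 and SKOV3 miR-365a-3p arrays 7.80, 8.08 and 7.94, groups that overlap. DUSP5 fell by 1.36 in MDA-MB-231 (SE 0.0636, adjusted p = 4.96e-06). Its SKOV3 difference was −0.065 (95% interval −0.227 to 0.0969, adjusted p = 0.723).

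DUSP1, an immediate early gene whose product acts on p38 and JNK as well as ERK, ran against the rest. In MDA-MB-231 the controls read 9.19, 9.27 and 9.46 and the miR-365a-3p arrays 9.82, 10.09 and 10.01. In SKOV3 the controls read 8.48 and 8.58 and the miR-365a-3p arrays 9.10, 8.93 and 8.82. Every treated array was above every control array in both lines. DUSP1 rose by 0.67 in MDA-MB-231 (SE 0.0975, adjusted p = 0.00118) and by 0.42 in SKOV3 (SE 0.109, adjusted p = 0.0328). The SKOV3 call is fragile: the difference was 0.17 (adjusted p = 0.461) on the values as deposited and 0.21 (adjusted p = 0.296) with arrays centred on their median. It was 0.30 (adjusted p = 0.0731) with cyclic loess, and no call with SKOV3 fitted alone (0.0711) or with an intensity trend (0.0731). It was also lost without MDA-MB-231 miR-365a-3p replicate 3 (adjusted p = 0.0512), without SKOV3 miR-365a-3p replicate 1 (0.0836) or 2 (0.0573), and without SKOV3 control replicate 1 (0.207) or 2 (0.122).

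DUSP4, a nuclear phosphatase of ERK, stayed close to the floor. In MDA-MB-231 the controls read 7.63, 7.79 and 7.81 and the miR-365a-3p arrays 7.68, 7.74 and 7.77, which overlap. All 5 SKOV3 arrays lay below the floor level, at 7.32 and 7.31 in controls and 7.30, 7.29 and 7.32 with miR-365a-3p. Its MDA-MB-231 difference was −0.0099 (95% interval −0.115 to 0.0952, adjusted p = 0.929), and it became a call of −0.27 (adjusted p = 0.0204) on the values as deposited and −0.23 (adjusted p = 0.0303) with arrays centred on their median.

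SPRY2, the Sprouty gene among the 10 with clear signal in both lines, followed DUSP6 in MDA-MB-231. The controls there read 9.996, 9.963 and 10.23 and the miR-365a-3p arrays 8.98, 9.23 and 9.42. In SKOV3 the controls read 8.42 and 8.29 and the miR-365a-3p arrays 8.04, 8.12 and 7.87. Treated arrays were thus below controls in both lines. SPRY2 fell by 0.86 in MDA-MB-231 (SE 0.12, adjusted p = 0.000957). The SKOV3 difference of −0.35 (95% interval −0.656 to −0.0444) made no call (adjusted p = 0.137). It made one on the values as deposited (−0.66, adjusted p = 0.029), with arrays centred on their median (−0.63, adjusted p = 0.0351) and with cyclic loess (−0.47, adjusted p = 0.0429).

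SPRY4 had signal above the floor in the MDA-MB-231 controls and in no other group. Those arrays read 7.86, 7.95 and 7.99, and the miR-365a-3p arrays of the line read 7.38, 7.34 and 7.34. SKOV3 read 7.40 and 7.38 in controls and 7.34, 7.34 and 7.35 with miR-365a-3p. SPRY4 fell by 0.58 in MDA-MB-231 (SE 0.0314, adjusted p = 9.77e-06), a fall that ends at the floor. The SKOV3 difference of −0.050 (adjusted p = 0.493) lies between groups that were both at the floor.

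FOSL1, which encodes the AP-1 subunit FRA1 and is a marker of RAS-driven and basal-like tumour cells, had the largest MDA-MB-231 difference of the 10 genes. The controls read 8.91, 9.31 and 9.29 (9.17 ± 0.23, SD, n = 3) and the miR-365a-3p arrays 7.51, 7.50 and 7.56 (7.52 ± 0.03, n = 3). SKOV3 controls read 7.56 and 7.62 and SKOV3 miR-365a-3p arrays 7.38, 7.46 and 7.48. FOSL1 in treated MDA-MB-231 cells thus lay just below the lowest SKOV3 control. It fell by 1.65 (SE 0.0943, adjusted p = 1.21e-05). In SKOV3 the difference was −0.15 (95% interval −0.393 to 0.0871, adjusted p = 0.483), and it was called without MDA-MB-231 control replicate 1 (adjusted p = 0.0316).

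ETV5 and ETV4 belong to the PEA3 group of ETS factors, which are repressed by CIC until ERK relieves them. ETV5 read 9.07, 8.74 and 9.15 in MDA-MB-231 controls and 7.57, 7.51 and 7.60 with miR-365a-3p. In SKOV3 it read 7.74 and 7.71 in controls and 7.38, 7.42 and 7.38 with miR-365a-3p, the last 3 below the floor level. Treated arrays were below controls in both lines. ETV5 fell by 1.43 in MDA-MB-231 (SE 0.0892, adjusted p = 1.81e-05). In SKOV3 the difference was −0.33 (95% interval −0.559 to −0.105), just short of a call (adjusted p = 0.0604). It was called in SKOV3 fitted alone (adjusted p = 0.0073), among rows above the median level (0.0349), on the values as deposited (−0.53, adjusted p = 0.0028), with arrays centred on their median (−0.50, 0.0036), with an intensity trend (0.0416), and without MDA-MB-231 control replicate 2 (0.0012) or 3 (0.0375).

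ETV4 read 7.79, 7.83 and 7.79 in MDA-MB-231 controls and 7.41, 7.32 and 7.42 with miR-365a-3p. SKOV3 read 7.42 and 7.42 in controls and 7.36, 7.38 and 7.37 with miR-365a-3p. As for SPRY4, the MDA-MB-231 controls were the one group above the floor. ETV4 fell by 0.42 there (SE 0.029, adjusted p = 3e-05), and its SKOV3 difference of −0.046 (adjusted p = 0.493) was between groups at the floor.

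EGR1, a zinc finger factor induced within minutes of ERK activation, was the one gene with its highest level in SKOV3. The SKOV3 controls read 8.66 and 8.77 and the miR-365a-3p arrays 7.82, 7.87 and 7.80. In MDA-MB-231 the controls read 7.75, 8.18 and 7.95 and the miR-365a-3p arrays 7.61, 7.69 and 7.61. The 2 groups did not overlap in either line. EGR1 fell by 0.88 in SKOV3 (SE 0.101, adjusted p = 0.000765). In MDA-MB-231 it fell by 0.32 (SE 0.0907, adjusted p = 0.0279), and that call was lost with the line fitted alone (adjusted p = 0.0883), with cyclic loess (−0.26, adjusted p = 0.0977), without MDA-MB-231 miR-365a-3p replicate 1 (0.0852), 2 (0.0502) or 3 (0.077), and without MDA-MB-231 control replicate 3 (0.0716).

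**Figure D2:**
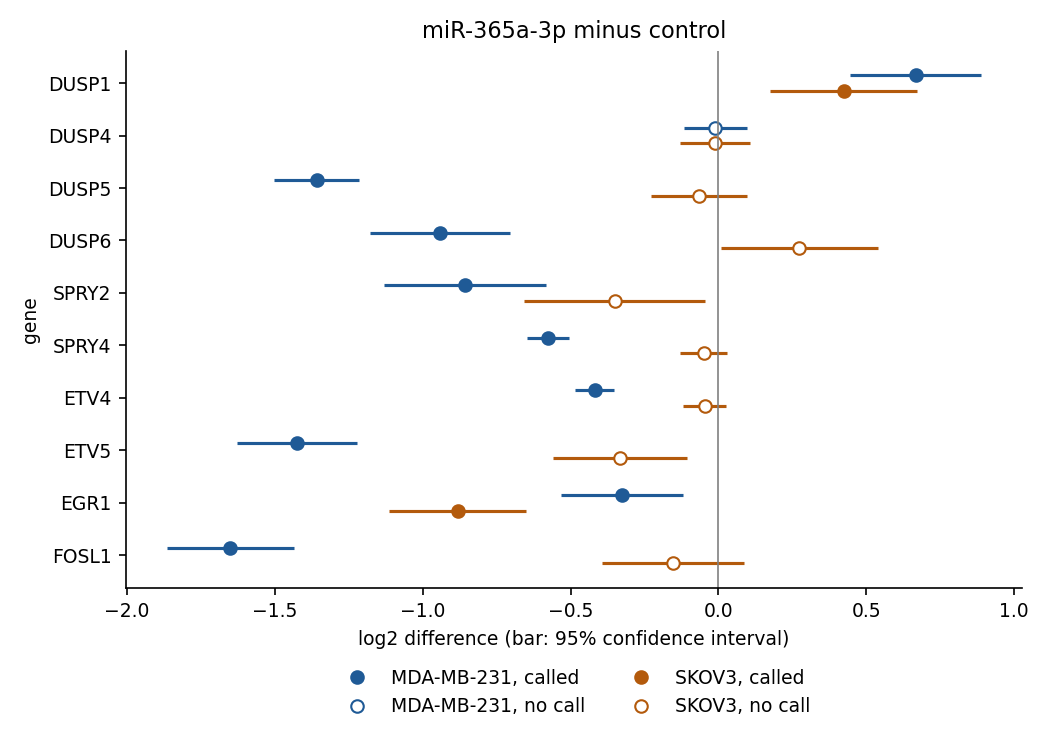
Log2 difference of miR-365a-3p minus control for each of the 10 genes in MDA-MB-231 and SKOV3, with 95% confidence intervals. Filled points passed an adjusted p of 0.05 and open points did not. The MDA-MB-231 points run from −1.65 for FOSL1 to 0.67 for DUSP1, and the SKOV3 points from −0.88 for EGR1 to 0.42 for DUSP1.

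These counts are read against the whole table. The 10 genes were chosen with earlier results of these data known. The shares given here and below therefore serve as description, not as a test of the gene set. In MDA-MB-231, 11.7% of all rows were called lower and 14.4% higher, against 8 and 1 of the 10 genes. Among the 12946 rows with a mean above the floor level, 24.9% were called lower and 32.6% higher. Treated arrays lay entirely below controls for 8 genes and above for 1, where 17.0% and 21.0% of all rows did. In SKOV3, 7.11% of rows were called lower and 7.25% higher (15.2% and 17.0% of rows above the floor level), against 1 and 1 of the 10 genes. There, treated arrays lay entirely below controls for 6 genes and above for 2, where 18.2% and 23.7% of all rows did. Called in the same direction in both lines were EGR1, lower, and DUSP1, higher, and over all rows 5.39% were lower and 5.76% higher in both. The median difference of the 10 genes was −0.72 in MDA-MB-231 and −0.058 in SKOV3, where the median of all rows was 0.0064 and 0.0066.

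The scale chosen for the arrays moves the whole table. Of all rows called in MDA-MB-231, 44.8% were lower after quantile normalization, 71.2% on the values as deposited, 59.1% with arrays centred on their median and 45.4% with cyclic loess. In SKOV3 these shares were 49.5%, 78.6%, 67.7% and 50.3%. The median of the 10 genes in MDA-MB-231 was −0.89, −0.86 and −0.68 under the 3 other scalings, and in SKOV3 it was −0.21, −0.17 and 0.0044.

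Whether the lines responded differently was tested directly, as the MDA-MB-231 difference minus the SKOV3 difference. Of the 10 genes, 6 had a call, all more negative in MDA-MB-231, where 1.30% of all rows were called lower and 1.24% higher (2.97% and 2.60% of rows above the floor level). DUSP5 differed by −1.29 (SE 0.0954, adjusted p = 0.000443) and DUSP6 by −1.22 (SE 0.157, adjusted p = 0.00553). FOSL1 differed by −1.50 (SE 0.141, adjusted p = 0.00132) and ETV5 by −1.09 (SE 0.134, adjusted p = 0.00429). SPRY4 and ETV4 differed by −0.53 (adjusted p = 0.00114) and −0.37 (adjusted p = 0.00346), but both were at the floor in SKOV3 controls. FOSL1 and ETV5 in SKOV3 controls were also close to the floor level, at 7.59 and 7.72, so the room for a fall was small. DUSP6 was in the same range there, at 7.62, and DUSP5 was at 8.01.

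No call was made on the difference of responses for the other 4 genes. The DUSP1 responses differed by 0.24 (95% interval −0.0892 to 0.577, adjusted p = 0.576) and those of DUSP4 by 0.0018 (−0.156 to 0.159, adjusted p = 0.995). For SPRY2 the difference was −0.51 (−0.917 to −0.0962, adjusted p = 0.257). EGR1 was the gene with the larger fall in SKOV3, by 0.56 (0.247 to 0.867, adjusted p = 0.0846), and without MDA-MB-231 control replicate 2 this was a call (0.66, adjusted p = 0.0115).

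The control arrays compare the lines themselves, one with a BRAF mutation and one that the study lists as wild-type for BRAF. Tissue of origin, the mutation and every other difference between the lines cannot be told apart. In this comparison 9 genes were higher in MDA-MB-231 and EGR1 was lower, and over all rows 7.76% were called higher and 8.34% lower (17.4% and 17.5% of rows above the floor level). DUSP6 differed most, by 2.60 (SE 0.117, adjusted p = 2e-06), followed by SPRY2 at 1.71 (adjusted p = 4.77e-05), FOSL1 at 1.58 (1.83e-05), DUSP5 at 1.49 (2.82e-06) and ETV5 at 1.26 (4.8e-05). DUSP1 was higher by 0.78 (adjusted p = 0.00123), SPRY4 by 0.54 (1.56e-05), DUSP4 by 0.43 (0.000532) and ETV4 by 0.39 (6.64e-05). EGR1 was lower in MDA-MB-231, by −0.75 (SE 0.101, adjusted p = 0.00102).

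With miR-365a-3p in both lines, fewer of the genes set the lines apart. In that comparison 4 were higher in MDA-MB-231 (8.71% of all rows were higher and 8.29% lower): DUSP6 by 1.38 (adjusted p = 3.61e-05), SPRY2 by 1.20 (0.000189), DUSP1 by 1.02 (0.000139) and DUSP4 by 0.43 (0.000278). The DUSP5 difference was 0.20 (95% interval 0.0521 to 0.342, adjusted p = 0.071), called among rows above the median level (0.0489) and without SKOV3 miR-365a-3p replicate 2 (0.0105). ETV5 differed by 0.17 (−0.033 to 0.374, adjusted p = 0.279), called without MDA-MB-231 control replicate 2 (0.0095). FOSL1 differed by 0.082 (−0.133 to 0.297), SPRY4 by 0.013 (−0.0584 to 0.0846), ETV4 by 0.016 (−0.0505 to 0.0818) and EGR1 by −0.19 (−0.402 to 0.012). The comparisons of control arrays and of treated arrays are made from the same 4 group means as the responses above. They restate the same arrays and do not add evidence to those responses.

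**Figure D3:**
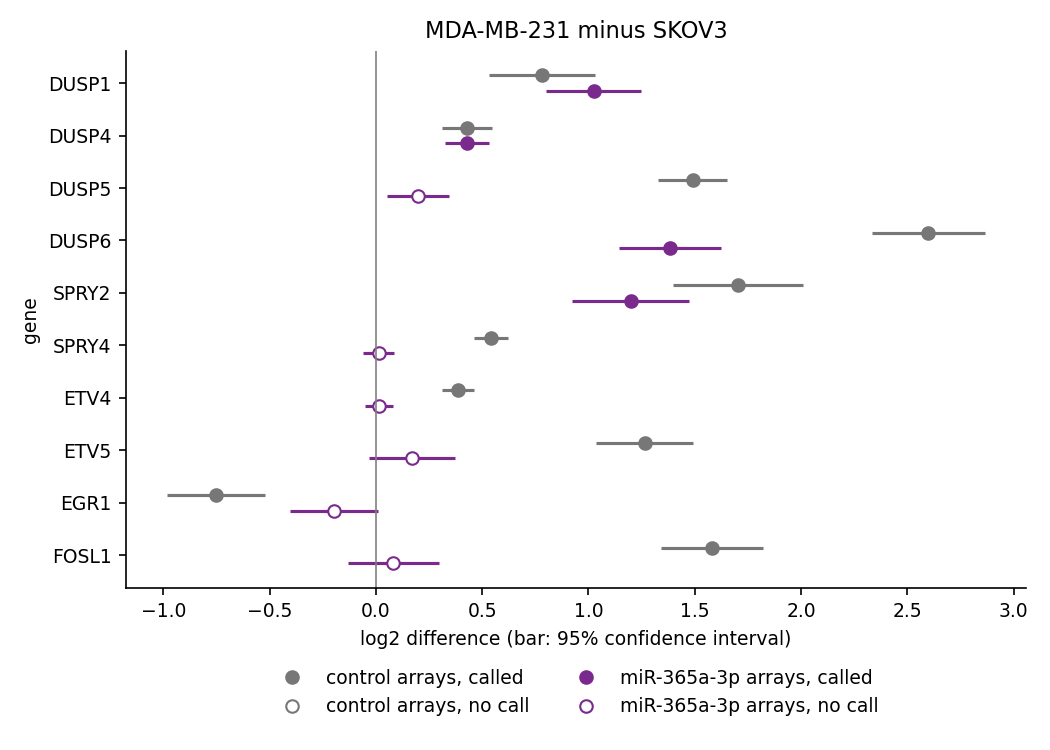
Log2 difference of MDA-MB-231 minus SKOV3 for the 10 genes on control arrays and on miR-365a-3p arrays, with 95% confidence intervals. Filled points passed an adjusted p of 0.05. On control arrays all 10 points are filled, from −0.75 for EGR1 to 2.60 for DUSP6, and on miR-365a-3p arrays 4 are.

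The order of the 4 groups separates the genes into a few shapes. For DUSP5, DUSP6 and SPRY2 both MDA-MB-231 groups were above both SKOV3 groups, with the MDA-MB-231 controls highest. The SKOV3 groups of DUSP5 overlapped. For FOSL1 and ETV5 the MDA-MB-231 controls stood alone at the top, followed by SKOV3 controls, treated MDA-MB-231 and treated SKOV3, with no overlap between neighbours. SPRY4 and ETV4 had the same order, but treated MDA-MB-231 and treated SKOV3 arrays overlapped, and for ETV4 the SKOV3 controls overlapped with treated MDA-MB-231 as well. For DUSP1 the order was treated MDA-MB-231, control MDA-MB-231, treated SKOV3 and control SKOV3, again with no overlap. EGR1 began with SKOV3 controls, and the next groups, MDA-MB-231 controls and treated SKOV3, overlapped. For DUSP4 the 2 groups of each line overlapped, with MDA-MB-231 above SKOV3.

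Across the 11 arrays, FOSL1 and SPRY4 moved most alike of the 45 pairs of these genes (Pearson r = 0.997), followed by SPRY4 with ETV4 and ETV4 with FOSL1 (both 0.987) and by DUSP5 with FOSL1 (0.986). The most unlike pair was DUSP1 with EGR1 (r = −0.75). The arrays fall into 4 groups that these correlations mostly follow, so they describe group means and carry no test.

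Among the other 12945 rows above the floor level, the row most like FOSL1 outside the 10 genes was TNC, the matrix protein tenascin C (r = 0.997), which was also next after FOSL1 for SPRY4 (r = 0.997). DUSP5 was most like ITGA2, an integrin subunit (r = 0.995), DUSP6 most like FANCE (0.994), ETV5 most like ZNF185 (0.993), and SPRY2 most like EFEMP1 (0.992) and next MYC (0.990). DUSP1 was most like POLR1E (r = 0.992), a subunit of RNA polymerase I, DUSP4 most like MPP4 (0.989) and EGR1 most like LCMT1 (0.975). ETV4 was most like SPRY4 (r = 0.987) and FOSL1 (0.987).

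The rest of the pathway was described by 4 gene lists, and their counts are read against the shares of rows given above: in MDA-MB-231, 11.7% of all rows and 24.9% of rows above the floor level were lower and 14.4% and 32.6% higher, and in SKOV3 7.11% and 15.2% were lower and 7.25% and 17.0% higher. The shares of inhibitors called lower in either line, and of other outputs called in SKOV3, are near or below those of rows above the floor level, so these counts are no result about those lists. No list was tested as a whole. Of 23 genes of the cascade from RAS to ERK and its adaptors, 10 fell and 2 rose in MDA-MB-231, and 5 fell and 1 rose in SKOV3, with medians of −0.11 and −0.048. Among those lower in both lines were SOS1, SHC1, ARAF and IQGAP1, and higher in both was NRAS. SOS1 was at the floor in all 4 groups (7.29 to 7.43), so its small differences are between values without clear signal. IQGAP1, a scaffold of the kinases, fell by 1.67 in MDA-MB-231 (adjusted p = 5.92e-05) and by 1.10 in SKOV3 (0.00173). ARAF, a RAF kinase, fell by 1.07 in MDA-MB-231 (adjusted p = 0.000168) and fell by 1.11 in SKOV3 (0.000544). NRAS rose by 0.84 in MDA-MB-231 (adjusted p = 0.0036) and by 0.61 in SKOV3 (0.0453), the second call being lost under 4 of the other settings, without either SKOV3 control (adjusted p = 0.2 and 0.207), and without 5 other arrays taken singly, MDA-MB-231 miR-365a-3p replicates 1 and 2, MDA-MB-231 control replicates 2 and 3 and SKOV3 miR-365a-3p replicate 1 (0.0545 to 0.0854). In limma, 0 of the 23 cascade genes had a call on the difference between the lines' responses, and at an unadjusted p under 0.05 there were 4 lower and 2 higher.

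Of 17 further inhibitors of the pathway, 5 fell in MDA-MB-231 and 3 in SKOV3, and 0 rose in limma (1 in each line at an unadjusted p under 0.05). The 3 called lower in both were SPRED1, SPRED2 and RASAL2, which encode 2 Sprouty-related proteins and a RAS GTPase-activating protein. SPRED1 fell by 1.83 in MDA-MB-231 (adjusted p = 3.33e-05) and by 0.78 in SKOV3 (0.00792), and the responses differed (−1.05, adjusted p = 0.03). Its SKOV3 call was lost with the line fitted alone (adjusted p = 0.0541) and without SKOV3 control replicate 2 (0.077). SPRED2 fell by 1.28 in MDA-MB-231 (adjusted p = 5.97e-05) and fell by 1.06 in SKOV3 (0.000592). The values of RASAL2 fell by 0.15 in MDA-MB-231 (adjusted p = 0.00117) and fell by 0.092 in SKOV3 (0.0428), and the second was lost without 9 of the 11 arrays taken singly. Both RASAL2 differences lie at the floor level, between 7.46 and 7.31 in MDA-MB-231 and between 7.42 and 7.33 in SKOV3. SPRY1, another Sprouty gene, fell by 0.57 in MDA-MB-231 (adjusted p = 0.000118), and its response differed between the lines (−0.39, adjusted p = 0.0424).

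Of 11 transcription factors and cofactors through which ERK acts, 8 fell in MDA-MB-231 and 5 in SKOV3, and 0 rose in limma, at an unadjusted p under 0.05 as well. The median was −0.29 and −0.25. CREB1, the factor that binds the cAMP response element printed above for DUSP1, fell by 1.08 in MDA-MB-231 (adjusted p = 0.00119) and fell by 1.41 in SKOV3 (0.00117). ELK1, a cofactor of serum response factor at CArG boxes, fell by 0.77 in MDA-MB-231 (adjusted p = 0.0017) and fell by 0.62 in SKOV3 (0.0169), and the SKOV3 call was lost with the line fitted alone (0.0683) and without either SKOV3 control (0.0872 and 0.127). MKL2 fell by 0.28 in MDA-MB-231 (adjusted p = 0.0028) and fell by 0.44 in SKOV3 (0.00105). CIC, the repressor of ETV4, ETV5 and DUSP6, fell by 0.17 in MDA-MB-231 (adjusted p = 0.00498) and fell by 0.25 in SKOV3 (0.00288). The treated groups of MKL2 and CIC were at the floor in both lines (7.34 to 7.39), as was ELK3, named after its values were seen, at 7.41 and 7.40.

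Of 24 other known outputs of the pathway, 10 fell and 1 rose in MDA-MB-231, and 3 fell and 3 rose in SKOV3. Lower in both lines were MYC, PHLDA1 and TGFA. MYC fell by 1.44 in MDA-MB-231 (adjusted p = 7.81e-05) and fell by 0.64 in SKOV3 (0.0145), and the second was lost without either SKOV3 control (0.0932 and 0.0977). PHLDA1 fell by 1.04 in MDA-MB-231 (adjusted p = 4.32e-05) and fell by 0.60 in SKOV3 (0.00246). TGFA, a ligand of the EGF receptor, fell by 0.95 in MDA-MB-231 (adjusted p = 2.66e-06) and fell by 0.34 in SKOV3 (0.0012), and its responses differed (−0.60, adjusted p = 0.00138). The other calls on the difference of responses were JUN (−1.23, adjusted p = 0.00126), EPHA4 (−0.43, 0.0231) and HBEGF (−0.68, 0.0267), all named here after their values were seen. EPHA4 in SKOV3 was at the floor in both groups (7.36 and 7.39), and HBEGF was close to it (7.48 and 7.46). JUN, the partner of FOSL1 in AP-1, fell by 0.73 in MDA-MB-231 (adjusted p = 0.000221) and rose by 0.50 in SKOV3 (0.00541). On control arrays 10 of these 24 genes were higher in MDA-MB-231 and 1 was lower, the same side as 9 of the 10 ERK output genes. In that comparison 7.76% of all rows were called higher and 8.34% lower (17.4% and 17.5% of rows above the floor level).

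**Figure D4:**
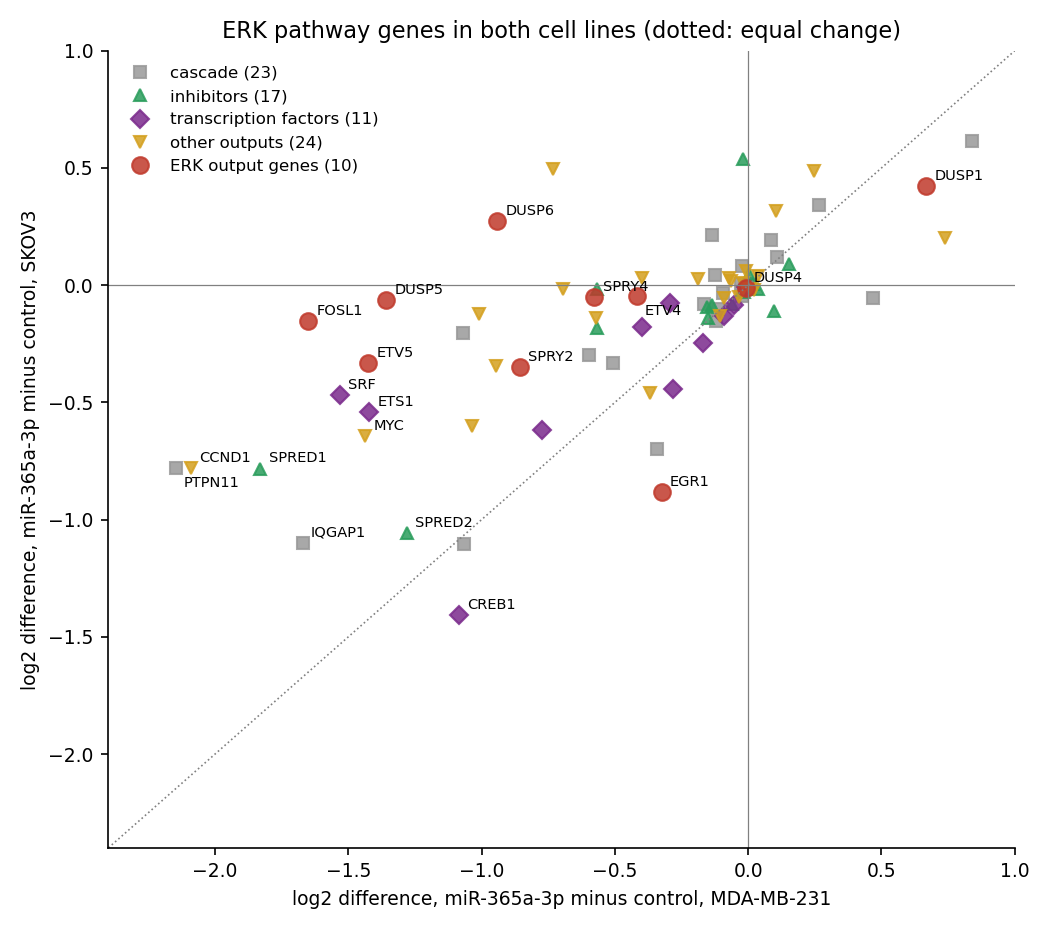
Log2 difference of miR-365a-3p minus control in SKOV3 against that in MDA-MB-231 for the 10 ERK output genes and the 4 lists of other pathway genes, 1 point per gene, with equal differences on the dotted line. Most of the ERK output genes lie left of 0 and near the horizontal 0 line, EGR1 lies below it at −0.88, and DUSP1 is at the upper right at 0.67 and 0.42.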

How the data were processed

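The 11 RNA samples were hybridised to Illumina BeadChips, and their 4 groups come from the cell line and treatment in the labels. The authors processed the scans with lumi (version not given in the sources used here) and deposited log2 values, 1 for each gene symbol on each array; whether the transformation was log2 or variance-stabilizing, how background was treated and how probes of a gene were combined are not given in the sources used here. No depth applies to arrays, and their number limits the precision.

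The study's text states that quantile normalization was done with lumi. The deposited columns nevertheless did not share a distribution, and they were quantile normalized here across the 11 arrays. A model with 4 group means was fitted to all 31325 genes with limma 3.58.1 (lmFit, eBayes) in R 4.3.3, p-values received the Benjamini-Hochberg adjustment over the whole table, an adjusted p under 0.05 was a call, and 95% confidence intervals were taken from the moderated fit. The floor level is the 60th percentile of an array. The fit was tested on simulated data.

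The 10 genes, the pathway lists and the markers were chosen with earlier results of these data known. All 10 genes were named with values on every array, and from each list up to 4 genes called in both lines in the same direction, by the mean difference. For likeness, the highest Pearson r over the 11 arrays was used. One list gene was matched by an older symbol, and some listed genes are not reported here by name. Sequences and promoter motifs were read from RefSeq tables (GRCh38.p14), which named 17755 of the symbols. Same-numbered arrays of a line correlated in their deviations from the group means at −0.12, 0.042 and 0.23 in MDA-MB-231 and 0.039 and −0.073 in SKOV3 over 6853 genes. Differently numbered arrays of MDA-MB-231 ran from −0.47 to 0.35. The numbers were not used as pairs, although groups of 2 or 3 arrays are too small to exclude pairing. The alternatives were a replicate block, each line alone, rows above the median level, deposited values, median centring, cyclic loess, an intensity trend with robust hyperparameters, and each array left out. Seed sites were not searched for, as transcript sequences were not used here.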

Additional observations from a re-analysis of the deposited data

Results flagged for a closer look

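The response to miR-365a-3p, miR-365a-3p minus control, differed between MDA-MB-231 and SKOV3 for 6 of the 10 genes by a test of the difference itself in limma. All 6 were more negative in MDA-MB-231, where 1.30% of all rows were called lower and 1.24% higher (2.97% and 2.60% of rows above the floor level). The log2 difference of the responses, MDA-MB-231 minus SKOV3, was −1.50 for FOSL1 (adjusted p = 0.00132), −1.29 for DUSP5 (0.000443), −1.22 for DUSP6 (0.00553) and −1.09 for ETV5 (0.00429). For SPRY4 it was −0.53 (adjusted p = 0.00114) and for ETV4 −0.37 (0.00346), and both of these were at the floor level in SKOV3 controls, while FOSL1, DUSP6 and ETV5 were close to it (7.59, 7.62 and 7.72). DUSP6 is the one of the 6 whose SKOV3 difference was above 0 (0.27), which made no call. No cause was tested.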

How the results depend on the processing

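Of the 10 genes, 9 had a call in MDA-MB-231, 2 in SKOV3, 6 for the difference of responses, 10 between control arrays and 4 between miR-365a-3p arrays, to be read beside the shares of all rows given above. Under the 7 settings other than leaving out an array these counts were 8 to 10, 2 to 3, 6, 10 and 4 to 5, with no value of the last 3 for lines fitted alone. Leaving out each array in turn gave 8 to 9, 1 to 3, 6 to 7, 10 and 4 to 5. With the replicate number as a block they were 9, 2, 6, 10 and 4; the SKOV3 call of DUSP1 was lost (adjusted p = 0.0716), that of ETV5 gained (0.0467), and no other gene of the 10 changed its call. Same-numbered arrays showed no clear pairing, but groups of 2 or 3 arrays are too small to exclude it. Signs turned only where no call was made. For DUSP4 the difference of responses was −0.25 on deposited values, −0.25 with median centring and −0.26 with loess, and −0.056 to 0.036 without single arrays. Its SKOV3 difference was 0.017 with centring and 0.12 with loess, and its MDA-MB-231 difference −0.067 to 0.025 without single arrays. With loess the SKOV3 differences of SPRY4 and ETV4 were 0.065 and 0.037. The ETV4 difference between treated lines was −0.00015 on deposited values and −0.0034 to 0.049 without single arrays, that of SPRY4 was −0.00025 to 0.020, and the SKOV3 difference of DUSP5 was −0.13 to 0.0046. The cause was not tested. Signal at or close to the floor in SKOV3 limits DUSP4, SPRY4, ETV4, ETV5, FOSL1 and DUSP6.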
